A study of Mus musculus with 4 samples.

Results

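The Hoxb cluster is a row of homeobox genes on mouse chromosome 11. All 10 of its genes, Hoxb1 to Hoxb9 and Hoxb13, were found by symbol among the 23997 gene symbols of a deposited expression table, each in a single row. The cluster itself was chosen by measured values, namely its FPKM in Asxl1-/- against WT libraries in earlier results of these same data, so its levels are given as a description. RNA sequencing was run on cultured mesenchymal stem/progenitor cells (MSPC), the stromal cells that can be grown out of bone marrow. The design sets 2 libraries of wild-type (WT) cells against 2 of Asxl1-/- cells, all on the C57BL/6 background, at passages 5 to 10 and in the same medium with no further agent. The series asks how loss of Asxl1 bears on self-renewal and cell fate in this stroma. The labels do not say which Asxl1 allele was used, how old the mice were, or whether each library is a separate animal or culture. The p-values therefore rest on the spread between these libraries, which may be technical.

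Hox genes encode transcription factors that bind DNA through a homeodomain, and their order along the chromosome follows the order in which they act from head to tail in the embryo. Hoxb1 lies at the end that acts in the hindbrain, and Hoxb9 and Hoxb13 lie at the end that acts in the trunk and tail. In adult cells the clusters are held active by Trithorax proteins such as Kmt2a (MLL1) or silent by Polycomb proteins. Asxl1 is a partner of BAP1, the enzyme that takes ubiquitin off histone H2A where Polycomb has put it. Stromal cells of different body sites keep different sets of active Hox genes in culture.

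In the deposited table Hoxb9 to Hoxb1 span 96.9 kb, from 96271330 to 96368253 of chromosome 11 (mm10), and Hoxb13 lies 74.7 kb beyond Hoxb9. In the GENCODE M21 annotation all 10 genes are on the plus strand. RefSeq's promoter table (GRCm38.p6) held 3 members, Hoxb8, Hoxb4 and Hoxb1. The 250 bases before the start sites of these 3 are printed because the source held no other member. Their levels in these cells differed, and a link of sequence to level was not tested. Hoxb8 was almost absent from WT and present in Asxl1-/- libraries, Hoxb4 was present in 3 libraries, and Hoxb1 was listed at 0 in all 4. Capitals mark CpG, the pair of bases that is methylated in silenced DNA and is frequent where Polycomb and Trithorax proteins sit.

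Hoxb8, chr11:96281655-96281904, plus strand: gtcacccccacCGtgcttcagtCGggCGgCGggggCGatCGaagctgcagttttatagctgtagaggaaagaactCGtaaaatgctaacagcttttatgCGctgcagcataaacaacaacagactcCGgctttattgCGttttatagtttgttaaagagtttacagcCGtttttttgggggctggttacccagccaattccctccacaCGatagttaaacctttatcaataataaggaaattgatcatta

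Hoxb4, chr11:96318017-96318266, plus strand: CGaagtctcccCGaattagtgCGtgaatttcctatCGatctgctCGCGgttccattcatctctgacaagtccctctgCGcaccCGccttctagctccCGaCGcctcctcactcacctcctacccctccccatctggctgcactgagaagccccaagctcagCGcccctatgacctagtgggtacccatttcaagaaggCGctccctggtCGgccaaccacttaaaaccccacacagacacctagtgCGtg

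Hoxb1, chr11:96365508-96365757, plus strand: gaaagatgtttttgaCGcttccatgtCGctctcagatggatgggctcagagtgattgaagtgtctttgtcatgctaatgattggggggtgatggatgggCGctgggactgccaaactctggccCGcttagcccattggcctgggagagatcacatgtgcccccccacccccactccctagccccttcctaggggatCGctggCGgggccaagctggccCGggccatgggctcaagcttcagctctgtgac

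The Hoxb4 window held 14 CpG, the Hoxb8 window 12 and the Hoxb1 window 7, against a median of 6 over 32851 promoters. At least 14 CpG were found in 29.4% of all promoters, at least 12 in 33.5% and at least 7 in 46.3%. The Hoxb8 window was poor in G and C, at 44.4%, and still held 0.974 times the CpG that its composition gives by chance, where the Hoxb1 window, at 59.2% G and C, held 0.320 times. Motifs were searched on both strands. CCAAT, the letters bound by NF-Y, was found once in Hoxb8, 57 bases before the start site, and at 2 places in Hoxb1, against 33.8% of all promoters with a match. TGATNNAT, the letters bound jointly by Hox and Pbx proteins, was found in Hoxb8, 11 bases before the start site, and in Hoxb1, 162 bases before it, against 7.68% of promoters. TATAAA was found at 2 places in Hoxb8 (12.4% of promoters) and CACGTG in none of the 3 (6.02%). The Hoxb4 window held none of these motifs. A match is only a match of letters.

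The members also share the homeobox, the coding stretch for the homeodomain. The 51 bases below code for homeodomain residues 42 to 58, the helix that reads DNA, in the 4 neighbouring trunk genes Hoxb6 to Hoxb9, and show how far reads from this stretch can tell the members apart. Capitals mark the codons of residues 50 and 51, which touch the bases (GENCODE M21, plus strand).

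Hoxb6, chr11:96300812-96300862: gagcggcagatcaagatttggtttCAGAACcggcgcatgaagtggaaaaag
Hoxb7, chr11:96289508-96289558: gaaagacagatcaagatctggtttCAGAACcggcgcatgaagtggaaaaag
Hoxb8, chr11:96284297-96284347: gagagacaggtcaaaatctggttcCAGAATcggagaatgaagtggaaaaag
Hoxb9, chr11:96274782-96274832: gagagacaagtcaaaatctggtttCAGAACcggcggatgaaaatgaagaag

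Over the 180 bases of the homeobox, the 45 pairs of members were identical at 50.6% to 88.9% of positions, with a median of 64.4%. Hoxb6 and Hoxb7 were the most alike, and the longest run shared by any pair at the same place was 37 bases. How the authors' counting treated reads that match more than 1 homeobox is not given in the sources used here. Exons of Hoxb3, Hoxb2 and Hoxb5 share 52.9%, 27.3% and 3.59% of their bases with the antisense genes Hoxb3os and Hoxb5os. The strandedness of the libraries is not given either, so sense and antisense reads cannot be told apart in these 3 genes. The other 7 members share no exon bases with a gene annotated in and around the cluster.

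Levels are in FPKM, fragment counts scaled by transcript length and by library size, and can be compared between genes of different length. Asxl1 itself stood at 14.6 and 11.2 FPKM in WT replicates 1 and 2 and at 0.273 and 0.312 FPKM in Asxl1-/- replicates 1 and 2, so all 4 libraries follow their labels. The values of low genes fall into steps of whole fragments, from which the depth was estimated at about 22900000 to 24500000 fragments per library. Of the genes at 20 FPKM or more in 3 libraries and at least 300 bp long, 2649 to 2704 depending on the library, 0 were listed at 0 in the fourth. The Hoxb genes lay under that level in every library, so this check does not cover them. Of the 11481 genes whose mean reached 1 FPKM, 67 and 42 were listed at 0 in WT replicates 1 and 2. In Asxl1-/- replicates 1 and 2 these were 54 and 55. Of 12 mesenchymal markers 11 were detected in every library, with Col1a1, the main bone and skin collagen, between 1298 and 2043 FPKM. Lepr, the marker of marrow stroma in the living mouse, was at or near 0 in all 4. Markers of macrophages, which often survive in such cultures, separated the libraries within each group. The summed FPKM of 16 such markers was 7.52 and 566.8 in WT and 81.6 and 380.1 in Asxl1-/-. In Asxl1-/- replicate 1, Fcer1g alone gave 72.2 of the 81.6 FPKM. Of the defining macrophage markers, Lyz2 stood at 2.85 and 399.9 FPKM in WT and at 2.36 and 293.4 in Asxl1-/-, so this transcript was high in both replicates 2 and low in both replicates 1. In bulk RNA, fewer cells of a type and less RNA per cell cannot be told apart.

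The main pattern was a cluster silent in one WT library, faint in the other and present in both Asxl1-/- libraries. In WT replicate 1 all 10 genes were listed at 0. A value of 0 allows up to 3 fragments, which is 0.0493 FPKM for Hoxb4 and up to 0.111 FPKM for Hoxb8, covering counting error only. In WT replicate 2, 8 members were above 0 and none reached 1 FPKM. In Asxl1-/- replicate 1, 8 members were above 0 and 3 reached 1 FPKM, and in Asxl1-/- replicate 2, 9 were above 0 and 7 reached 1 FPKM. The summed level of the cluster was 0 and 2.42 FPKM in WT (mean 1.21 ± 1.71, SD, n = 2) and 15.7 and 34.2 FPKM in Asxl1-/- (mean 25.0 ± 13, SD, n = 2). The groups did not overlap in this sum. An exact permutation test of 2 against 2 cannot give a two-sided p under 0.333, and none was run on a pattern known beforehand.

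**Figure D1:**
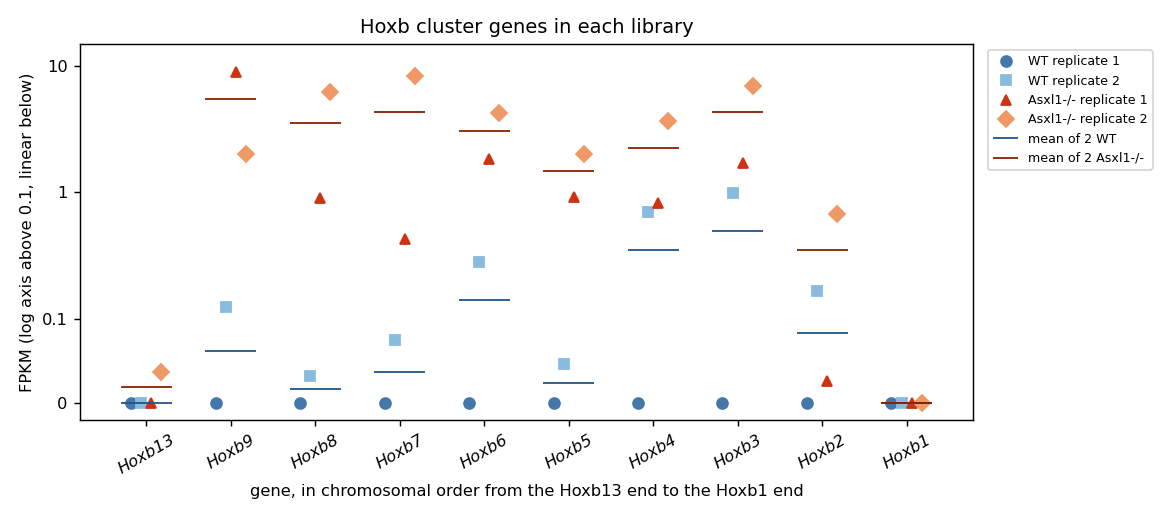
Level of each Hoxb gene (FPKM, log axis above 0.1 and linear below) in each of the 4 libraries, with genes in chromosomal order and lines at the mean of each group of 2. WT replicate 1 is at 0 throughout, and from Hoxb9 to Hoxb3 both Asxl1-/- points are higher than both WT points, in Hoxb4 by a small step (0.706 against 0.832).

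At the trunk end, Hoxb9, which helps to pattern the thoracic skeleton and the mammary gland, had the highest single value of the cluster. It was listed at 0 in WT replicate 1 and stood at 0.124 FPKM in WT replicate 2, about 7 to 8 fragments, against 9.08 and 2.02 FPKM in Asxl1-/- replicates 1 and 2. It was the only member with its highest value in Asxl1-/- replicate 1, where it stood 4.5 times above replicate 2. Hoxb8, used in the laboratory to keep myeloid progenitors growing, stood at 0 and 0.0318 FPKM in WT, the second value being about 1 to 2 fragments, against 0.896 and 6.20 FPKM in Asxl1-/-. Hoxb7, which is active in the budding kidney duct and has been studied in mesenchymal stem cells, stood at 0 and 0.0741 FPKM in WT, about 2 fragments, against 0.425 and 8.32 FPKM. Asxl1-/- replicate 2 exceeded replicate 1 by 6.92 times for Hoxb8 and by 19.6 times for Hoxb7, so the Asxl1-/- libraries differed from each other in opposite directions on either side of the gap between Hoxb9 and Hoxb8.

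In the middle, Hoxb6, a gene of the lateral plate mesoderm and of blood progenitors, gave 0 and 0.282 FPKM in the WT libraries, against 1.85 and 4.25 FPKM in Asxl1-/-. Asxl1-/- replicate 2 stood 2.29 times above replicate 1 for Hoxb6. This was less than for Hoxb7 and Hoxb8 but slightly more than the 2.18 times of Hoxb5, its neighbour on the other side. Hoxb5, a marker of long-lived blood stem cells that also acts in gut nerve precursors, stood at 0 and 0.0461 FPKM in WT, about 2 fragments, against 0.926 and 2.02 FPKM. Neither group of values overlapped the other in these genes.

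Hoxb4 and Hoxb3 were the members with the most signal in WT. Hoxb4, whose forced expression expands blood stem cells, stood at 0 and 0.706 FPKM in WT, the second value being about 43 fragments, against 0.832 and 3.66 FPKM in Asxl1-/-. WT replicate 2 and Asxl1-/- replicate 1 were therefore close, at about 43 and 52 fragments. Hoxb3, a hindbrain and pharyngeal arch gene, gave 0 and 0.993 FPKM in the WT libraries, against 1.70 and 7.0 FPKM in Asxl1-/-. The level in WT replicate 2 lay nearer to Asxl1-/- replicate 1 than that replicate lay to Asxl1-/- replicate 2.

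At the head end the groups did not separate. Hoxb2, a hindbrain gene, stood at 0 and 0.165 FPKM in WT and at 0.0263 and 0.679 FPKM in Asxl1-/-, so WT replicate 2 lay above Asxl1-/- replicate 1. Hoxb1, which defines a segment of the hindbrain, was listed at 0 in every library. Hoxb13, a prostate and tail gene at the far end, was above 0 only in Asxl1-/- replicate 2, at 0.0366 FPKM, a value of about 2 fragments. The signal of the cluster was thus bounded by 2 members at or near 0 on its outer sides.

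By mean level in Asxl1-/-, the order was Hoxb9 (5.55 ± 4.99 FPKM), Hoxb7 (4.37 ± 5.58), Hoxb3 (4.35 ± 3.75), Hoxb8 (3.55 ± 3.75), Hoxb6 (3.05 ± 1.69), Hoxb4 (2.24 ± 2.00), Hoxb5 (1.47 ± 0.773) and Hoxb2 (0.353 ± 0.462; SD, n = 2 each). No neighbours in this order down to Hoxb5 differed by more than the larger of their SDs. In WT the means were 0.497 ± 0.702 FPKM for Hoxb3, 0.353 ± 0.50 for Hoxb4, 0.141 ± 0.199 for Hoxb6 and 0.0825 ± 0.117 for Hoxb2, and each was set by WT replicate 2 alone.

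The 2 groups did not overlap for 7 of the 10 genes, Hoxb3 to Hoxb9 without a gap, with Asxl1-/- on the higher side in each and on the lower side in 0. Among the 17305 symbols above 0 in any library, 13.1% had Asxl1-/- on the higher side without overlap. Neighbours on a chromosome are not independent of each other.

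Genes were tested with limma on log2(FPKM + 1), with p-values adjusted by the Benjamini-Hochberg method over the 11481 genes whose mean reached 1 FPKM. Fold changes on this scale understate the change of low genes. This level was reached by 6 members, Hoxb3, Hoxb4, Hoxb6, Hoxb7, Hoxb8 and Hoxb9, each through its Asxl1-/- values, since no member reached 1 FPKM in WT. They had to differ to be tested. Just inside this level lay Hoxb4, at a mean of 1.30 FPKM, and just outside it Hoxb5, at 0.748.  None passed the adjusted threshold of 0.05, and over all genes 0 passed as higher in Asxl1-/- (0% of 11481) and 3 as lower (0.0261%). At an unadjusted p under 0.05, 2 members were higher, Hoxb6 and Hoxb9, and 0 lower, where 2.51% of tested genes were higher and 5.41% lower, or 288 and 621 genes. With median ratio scaling those 288 and 621 became 404 and 530. All 6 had groups that did not overlap, with Asxl1-/- higher, against 15.6% of tested genes in that direction and 25.2% in the other. With all rows above 0 in the fit, limma called 0 of 9 members, and Hoxb5, Hoxb6 and Hoxb9, 3 members, were higher at an unadjusted p under 0.05, where 2.29% of 17305 genes were.

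Hoxb9 had a limma log2 fold change of 2.38 (standard error 0.67, adjusted p 0.557), and of 1.51 without Asxl1-/- replicate 1. Hoxb8 had 1.86 with a standard error of 0.74, and 0.90 without Asxl1-/- replicate 2. Hoxb7 had 1.81 with a standard error of 0.97, the widest of the 6, and only 0.46 without Asxl1-/- replicate 2. Hoxb6 had 1.77 with a standard error of 0.48, the narrowest, a limma adjusted p of 0.552 and 1.33 in the same setting. Hoxb3 had 1.72 ± 0.70 (standard error) and Hoxb4 1.16 ± 0.64, against 0.94 and 0.49 without Asxl1-/- replicate 2, and Hoxb4 0.78 without WT replicate 1. The adjusted p of the 6 lay between 0.552 and 0.681. Their median was 1.79, where that of all tested genes was -0.07, but the way the 6 were chosen fixes its direction and nothing is read from the gap. With a pseudocount of 0.1 in place of 1 it was 3.95, and without Asxl1-/- replicate 2 it was 0.92.

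The authors' deposited Cuffdiff table tests Hoxb3 to Hoxb9, 7 members, and marks 0 as significant, where it marks 0.939% of 12881 tested genes, 0.543% as higher and the rest as lower. The authors' deposited table puts the log2 fold change at 7.88 for Hoxb8, 6.96 for Hoxb7, 6.55 for Hoxb9 and 6.07 for Hoxb5, with WT group values from 0.0190 FPKM for Hoxb8 to 0.0742 for Hoxb9. Those ratios divide by a WT level of a few fragments in 1 library. For Hoxb6, Hoxb3 and Hoxb4 the authors' deposited table gives 4.51, 3.21 and 2.74. Hoxb4, with the smallest of these ratios, had the smallest Cuffdiff p, 0.0459 with a q of 0.657. The share of all genes with so small a p was not worked out, so nothing is read from it. The authors' values come from these same libraries and are no separate evidence.

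The libraries differed in which genes carried the signal. In Asxl1-/- replicate 1, Hoxb9 made up 57.7% of the summed FPKM of the cluster and Hoxb7 2.70%. In Asxl1-/- replicate 2, Hoxb9 made up 5.90%, Hoxb7 24.3%, Hoxb3 20.5% and Hoxb8 18.1%. In WT replicate 2 the weight lay at the other end, with 41% in Hoxb3, 29.2% in Hoxb4 and 1.31% in Hoxb8. Hoxb6 held a like share in all 3, from 11.6% to 12.4%. With single libraries these are descriptions of those libraries.

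**Figure D2:**
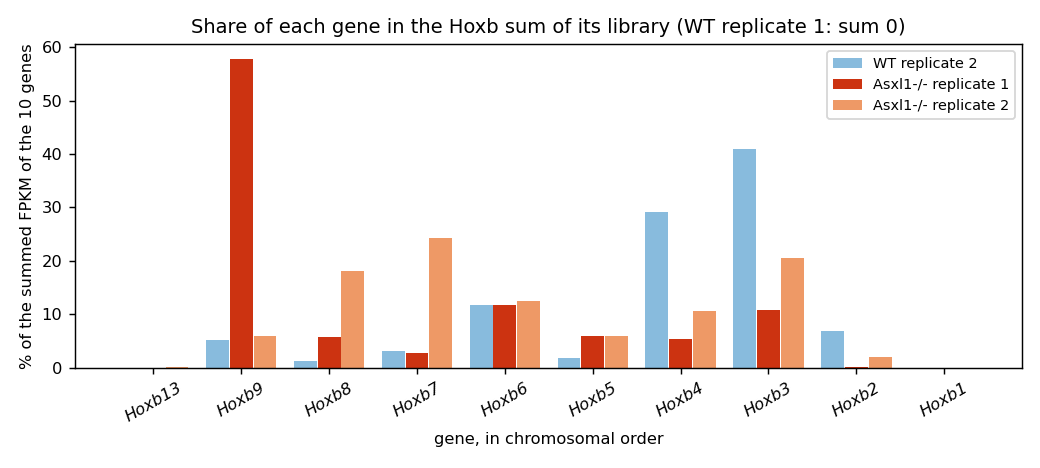
Share of each gene in the summed FPKM of the 10 Hoxb genes of its library (bars, percent), for the 3 libraries with a sum above 0. The tallest bar is Hoxb9 in Asxl1-/- replicate 1 (57.7%), whereas in WT replicate 2 Hoxb3 and Hoxb4 hold 41% and 29.2%.

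Of 7 non-coding rows in and around the cluster, only Gm53 reached the level for the test. Gm53, a long non-coding RNA gene next to Hoxb9 on its outer side, reached 7.76 FPKM in Asxl1-/- replicate 1 while the other 3 libraries were at 0, so it was high in the library in which Hoxb9 was highest. Its limma log2 fold change of 1.57 had a standard error of 1.11. Gm11538, between Hoxb13 and Hoxb9, stood at 0.0214 FPKM in that same library and at 0 elsewhere. Hoxb3os and Hoxb5os were not analysed here. Farther out, the rows of Gm11529 and Mir3063 were at 0 throughout, and 4833417C18Rik stood at most at 0.135 FPKM. The rows of the microRNA hairpins Mir196a-1, between Gm53 and Hoxb9, and Mir10a, between Hoxb5 and Hoxb4, were at 0 in all 4 libraries, and mature microRNAs were not measured by this assay. Their mature sequences from RefSeq (GRCm38.p6) are shown with the seed, bases 2 to 8, in capitals, beside the site in the end of the Hoxb8 transcript, because Hoxb8 is a known target of miR-196a from its own cluster.

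mmu-miR-196a-5p, chr11:96265187-96265208, plus strand: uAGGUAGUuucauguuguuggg
mmu-miR-10a-5p, chr11:96317186-96317208, plus strand: uACCCUGUagauccgaauuugug
Hoxb8 site for miR-196a (capitals face the seed): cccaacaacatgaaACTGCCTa

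The Hoxb8 site equals the full complement of miR-196a at 21 of 22 positions and differs from it by A18G, counted from 1 at the 5′ end of the site. An exact match to its seed was found after the stop codon of 3 of the 10 members, Hoxb1, Hoxb6 and Hoxb7, and one to the miR-10a seed in Hoxb3 alone. The 2 seeds differ, so the microRNAs form separate seed groups.

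Of 30 other tested genes within 1 Mb of it, Gm53 among them, limma called 0, 1 had an unadjusted p under 0.05 (Tbkbp1, higher), and 3 lay higher and 5 lower in both Asxl1-/- libraries, beside 15.6% and 25.2% of all tested genes. Their log2 fold changes ran from -1.19 (Sp6) to 1.57 (Gm53) with a median of 0.04. On the Hoxb9 side the nearest genes of the fixed list were Ttll6, a tubulin enzyme gene at 0.457 and 0.0387 FPKM in WT and 0.0246 and 0.0664 in Asxl1-/-, Calcoco2, an autophagy receptor gene at most at 0.0210, and Atp5g1, a subunit gene of the mitochondrial ATP synthase at 97.6 and 155.5 against 95.1 and 101.7. On the Hoxb1 side Skap1, a T cell adaptor gene, stood at most at 0.0576 FPKM, and Cbx1, a heterochromatin protein gene, at 43.2 and 28.8 in WT against 31.5 and 30.8. Snx11, a sorting nexin gene, gave 3.22 and 6.00 FPKM in the WT libraries, against 9.12 and 7.80, with groups that did not overlap and a log2 fold change of 0.80 (standard error 0.34). Over 946 other tested genes of chromosome 11, the median deviation from the mean of the 4 libraries was -0.14 and 0.07 in WT and 0.11 and -0.04 in Asxl1-/- (log2). Of these 946 genes, 229 lay higher and 178 lower in Asxl1-/- without overlap, whereas among all tested genes more lay lower. Their median log2 fold change was 0.09, against -0.07 for all tested genes. With the chromosome medians removed the median of the 6 tested Hoxb genes was 1.72.

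**Figure D3:**
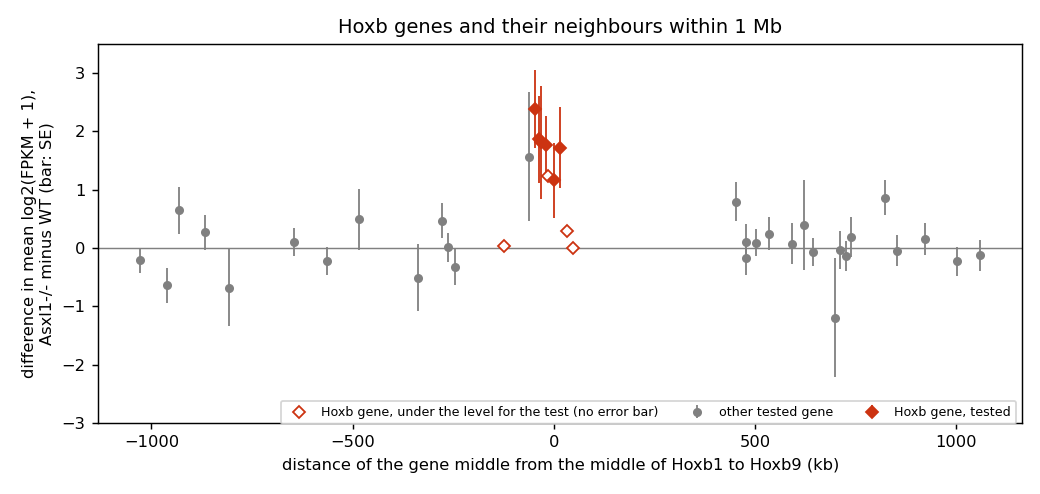
Difference in mean log2(FPKM + 1), Asxl1-/- minus WT, against distance from the middle of the Hoxb1 to Hoxb9 stretch, for tested genes within 1 Mb (bars: standard error) and for the 4 untested Hoxb genes (open symbols). The 6 tested Hoxb genes lie between 1.16 and 2.38, and the high grey point beside them is Gm53 (1.57).

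The other Hox clusters give a reference for positional genes in these cells. The 29 genes of Hoxa, Hoxc and Hoxd summed to 88.8 and 140.0 FPKM in WT and 152.4 and 58.6 FPKM in Asxl1-/-. WT replicate 1 thus lacked Hoxb transcripts while its Hoxa genes summed to 30.3 and its Hoxc genes to 50.1 FPKM. The Hoxb genes made up 0% and 1.70% of the Hox sum in WT and 9.36% and 36.8% in Asxl1-/-. The 36.8% also rests on low Hoxa and Hoxc sums in Asxl1-/- replicate 2, 26.1 and 17.3 FPKM, the lowest of any library. In Asxl1-/- replicate 1 they were 68.9 and 83.2 FPKM. Hoxd went the other way, with 0.319 FPKM in Asxl1-/- replicate 1 and 15.3 in replicate 2. Hoxa11 was at 0 in WT replicate 1 and Asxl1-/- replicate 2, but at 8.75 and 16.7 FPKM in their partner libraries. The other clusters were thus no steady reference. Without overlap, 15.6% of all tested genes lay higher in Asxl1-/- and 25.2% lower. Of 18 tested genes of the other clusters limma called 0, and 0 had an unadjusted p under 0.05. Among these 18 genes, groups without overlap were found for 0 higher and 0 lower, and the median log2 fold change was -0.08. Replicates of a group differed widely in several of the 18, so these counts do not show equal levels. The smallest p among them was that of Hoxa7, a trunk gene of the same paralogous group as Hoxb7, at 0.352 and 3.5 FPKM in the WT libraries, against 3.09 and 6.76 FPKM, and its groups overlapped. Hoxc10, a hindlimb gene, gave 30.9 and 43.9 FPKM in the WT libraries, against 39.3 and 3.27. The difference between the clusters was not tested.

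**Figure D4:**
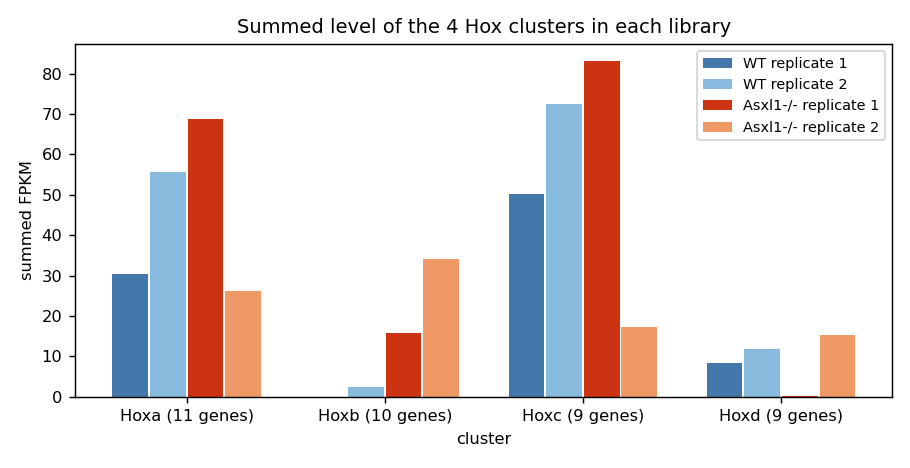
Summed FPKM of the genes of each Hox cluster (bars) in each library. The Hoxb sums are 0 and 2.42 in WT and 15.7 and 34.2 in Asxl1-/-, whereas for Hoxa, Hoxc and Hoxd the groups overlap.

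The macrophage markers varied along with part of this pattern. Within each group the library with more macrophage RNA, replicate 2, also had the higher Hoxb sum, while Hoxb9 in Asxl1-/- went the other way. Between the libraries low in these markers, Asxl1-/- replicate 1 against WT replicate 1, 8 members were higher in Asxl1-/-, 0 lower and 2 equal at 0. Between the libraries high in them, replicates 2, 9 were higher, 0 lower and 1 equal at 0. The median log2 difference of the 6 tested genes was 1.18 in the first pair and 2.02 in the second. These pairs were formed after the data were seen, and for Hoxb3 to Hoxb9 their direction was fixed beforehand. In these genes both Asxl1-/- values lay above both WT values, and no member could lie lower than WT replicate 1 at 0. The 6 tested genes also reached the level for the test through their Asxl1-/- values, so nothing is read from the pairs. Of 5 tested markers of blood stem and progenitor cells, 2 lay lower and 1 higher in Asxl1-/- without overlap, and the rest overlapped. Of all tested genes 25.2% lay lower and 15.6% higher in that way. The 2 lower markers were Meis1, at 8.86 and 6.34 FPKM in WT and 2.97 and 3.23 in Asxl1-/-, and Gata2, at 13.5 and 4.60 and at 1.23 and 2.64. Kit, the 1 higher, stood at 12.2 FPKM in Asxl1-/- replicate 1 and at most at 0.00799 elsewhere, a value near 0. Flt3 and Gata1 were at or near 0 in all 4, and the 10 markers of this list summed to 24.0 and 16.4 FPKM in WT against 16.8 and 13.6. Of 7 endothelial markers Emcn and Tie1 were at 0 in every library, and Cdh5 stood at 7.11 FPKM in Asxl1-/- replicate 2 and at most at 0.0100 elsewhere. The part of these cell types in the Hoxb levels was not tested.

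Hox proteins bind DNA together with the Pbx, Meis and Pknox homeodomain proteins. Of 11 genes in the cofactor list, which also holds Gmnn and Pbxip1, 10 were tested and limma called 0. Differences lay on both sides. Pknox2 gave 3.13 and 2.56 FPKM in the WT libraries, against 7.36 and 6.83 in Asxl1-/-, with a log2 fold change of 1.08 (standard error 0.25). Meis1 lay lower, at 8.86 and 6.34 FPKM against 2.97 and 3.23, with -1.05 (0.28), and Pknox1 at 8.36 and 6.12 against 3.99 and 4.35. The groups did not overlap in any of these 3 genes, which were named for their small limma p. Of the 10 tested genes of the list, 3 lay higher and 4 lower without overlap, beside 15.6% and 25.2% of all tested genes. The limma adjusted p of Pknox2, the smallest of the list, was 0.519.

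Genes that set Hox activity gave no call either. Their counts without overlap stand beside 15.6% of all tested genes that lay higher in that way and 25.2% that lay lower. Of 18 tested Trithorax and MLL genes limma called 0, 3 lay higher and 7 lower without overlap, and the median log2 fold change was -0.21. Dpy30, a core subunit of the MLL complexes, gave 49.5 and 37.9 FPKM in the WT libraries, against 26.5 and 26.5. Of 30 Polycomb genes limma called 0, 2 lay higher and 7 lower, and the median was -0.12. The smallest p of that list was that of Pcgf5, a subunit gene of Polycomb repressive complex 1, which lay higher, at 6.42 and 5.35 FPKM in WT and 11.6 and 12.7 in Asxl1-/-. Ezh2, the methyltransferase of Polycomb repressive complex 2, came next and lay lower, at 24.0 and 13.1 FPKM against 7.06 and 6.30. Of 10 tested Asxl and BAP1 partner genes limma called 0, 1 lay higher and 3 lower, Asxl1 among the latter. Asxl1 itself had a limma log2 fold change of -3.41 and an adjusted p of 0.215, so it was not among the genes called. The authors' deposited Cuffdiff table marks it as significant, with a q of 0.00836. The absence of limma calls in these lists therefore does not show that levels were equal. Of 9 tested upstream regulators, which include the NF-Y subunits, limma called 0, and the Cdx genes were under the level for the test.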

How the data were processed

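Per the submitters' processing notes, the authors used mm10, TopHat2 (2.0.3), Cuffdiff and Cufflinks (2.2.1). Which gene annotation, library kit and strand setting were used is not given in the sources used here. The deposited FPKM table has 24487 rows, and 2 further columns of per-sample values match no sample and were not used. A Cuffdiff table by the authors holds a group FPKM, the log2 of the fold change, and a p-value and q-value per gene. A deposited log table was not used.

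From the FPKM, the row with the highest mean was kept for each of 23997 symbols, and log2(FPKM + 1) of the genes whose mean reached 1 FPKM was fitted with limma 3.58.1 in R 4.3.3 (eBayes with trend), with Benjamini-Hochberg adjustment. The fit was also run on simulated data in which every gene had the same spread. The tested Hoxb genes differed in spread, so that run does not show how well their changes can be found. Depth was estimated from FPKM times GENCODE M21 transcript length in genes with 1 transcript of 1500 to 6000 bases, where 81.9% to 86.5% of low values lay within 0.2 of a whole number of fragments. Starts are given with 1 added. Promoter and microRNA sequences are RefSeq's (GRCm38.p6), coding and transcript-end sequences GENCODE's.

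The members and gene lists were chosen with earlier results of these data known. Named are Asxl1, the members, neighbours and non-coding genes of the cluster, and at most 4 tested genes per list by smallest limma p, of which some are not reported here. Other genes within a list are named where a defining marker is at or near 0 or where a count or range rests on them, such as Sp6 and Tbkbp1, after values were seen. The nearest profiles are the 5 tested genes, no Hox gene, at the smallest root mean square distance from the mean centred profile of the tested Hoxb genes. Alternatives were pseudocounts (0.1 and 0.5), all rows unfiltered, a minimum mean of 5 FPKM, median ratio and quantile scaling, eBayes without trend or robust, chromosome medians removed, summed rows, and each library left out. The pairs by macrophage marker level were added after seeing the data. Python (version 3.11.15) was used for tables and figures.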

Additional observations from a re-analysis of the deposited data

How the results depend on the processing

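Under 13 alternatives with a value, the 6 tested Hoxb genes had 78 fold changes, 0 of them negative and 0 past the adjusted threshold, with limma adjusted p from 0.418 to 0.946. At a mean of at least 5 FPKM no Hoxb gene enters, so that setting gives no member value. The count of 7 members above WT in both Asxl1-/- libraries ranks values within a gene, so pseudocounts, filters and eBayes options cannot change it and leaving out a library (7 to 9) cannot lower it. It says nothing of stability. The median of the tested members was 3.95 with a pseudocount of 0.1, and 0.918 to 2.36 with 1 library left out, lowest without Asxl1-/- replicate 2. The number of genes called by limma was 1 with no filter and 1 to 8 with 1 library left out (lowest without Asxl1-/- replicate 2, highest without Asxl1-/- replicate 1), against 3. A lone library is assumed to vary like the other group. Scaling by median ratios or quantiles moved the median of all genes from -0.07 to 0.01. Values under 0.1 FPKM rest on a few fragments. No paired analysis was possible because the labels give no replicate numbers that the groups share.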

Other observations

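Of genes outside the Hox clusters, those whose profile over the 4 libraries lay nearest to the mean Hoxb profile were the following 5, by root mean square distance of centred log2(FPKM + 1) among tested genes. Serpina3i, a serine protease inhibitor gene, lay at 0.125, with 0.154 and 0.450 FPKM in WT and 1.61 and 4.45 in Asxl1-/-. Trim47, a ubiquitin ligase gene, lay at 0.183, with 4.31 and 6.36 against 15.6 and 24.3. The fibrillin gene Fbn1 lay at 0.198, the collagen gene Col8a1 at 0.199 and the dipeptidase gene Cndp2 at 0.221. The tested members lay at 0.0851 (Hoxb6), 0.265 (Hoxb3), 0.316 (Hoxb8), 0.347 (Hoxb4), 0.574 (Hoxb7) and 1.06 (Hoxb9) from their own mean. All of them except Hoxb6 were thus farther from it than any of these 5 genes, so the mean stands poorly for single members.

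Retinoic acid, the vitamin A derivative that opens Hox clusters from the Hoxb1 end in the embryo, has its own genes in these cells. Of 18 such genes 13 were tested, limma called 0, and 4 lay higher and 2 lower in both Asxl1-/- libraries, as did 15.6% and 25.2% of all tested genes. Crabp1, a binding protein of retinoic acid, gave 60.1 and 41 FPKM in the WT libraries, against 17.1 and 10.6. The receptor gene Rarb stood at 3.52 and 0.546 against 9.70 and 7.88, and Rdh10, which makes the precursor retinaldehyde, at 7.36 and 4.29 against 11.6 and 28.6. Dhrs3, which turns retinaldehyde back, stood at 4.59 and 8.65 against 108.6 and 12.2, highest in the Asxl1-/- library with the highest Hoxb9. Aldh1a2, which makes retinoic acid and is named after its values were seen, was also highest there, at 0 and 1.59 against 247.9 and 2.70. Aldh1a1 of the same list, likewise named afterwards, was lowest in that library, at 6.21 and 4.05 against 0.835 and 19.3. A link of these genes to Hoxb9 was not tested. Of 4 tested osteoblast markers limma called 0 and 3 lay lower without overlap, beside 25.2% of all tested genes. Runx2, the master regulator of bone formation, was among the 3, at 13.6 and 17.6 FPKM in WT against 5.73 and 7.32.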
